A study of Setaria viridis with 11 samples.

Results

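A set of 13 transcripts was close to silent in the leaves of every control plant and carried at least 500 counts in every heat-stressed plant. They were chosen from these counts: a transcript was kept if its count, read pairs and single reads added, was at most 20 in each of the 5 control plants and at least 500 in each of the 6 heat-stressed plants. Of 40599 listed transcripts, 14 met both limits. Among these 14 was Si027442m, the Rubisco activase isoform with a C-terminal extension, which was set aside, and 13 remained. The 4 other transcripts that the choice left out by name did not meet the limits. The difference between the conditions within the set is therefore the way it was chosen, and it is described here without a test.

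The plants were wild-type *Setaria viridis* of the genotype A10, a C4 grass, all grown in soil under 16 h of light. Control plants stayed at a day temperature of 28 °C and a night temperature of 20 °C. Heat-stressed plants were moved as seedlings to a second chamber with days of 42 °C and nights of 32 °C, where they spent 2 weeks with other settings alike. Leaves of both groups were harvested on day 28. Each condition had its own chamber, so chamber and temperature cannot be told apart, and no time course was measured. The RNA came from pooled midsections of fully expanded leaves, and in such bulk samples fewer cells of a type and less RNA per cell cannot be told apart.

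Plants kept above their growth temperature are known to accumulate heat shock proteins, chaperones that hold or refold unfolding proteins, after heat stress transcription factors bind their promoters. Many such genes are nearly silent at mild temperature. Which of these roles, if any, the 13 transcripts have was not analysed here: the reference gene table matched 0 of the 40599 identifiers, none of the 13 is in the portion of the study's annotation table used here, and the transcripts are described by identifier alone. Transcript lengths were not used, so an order of transcripts below is one of read counts and not of molecules.

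Library totals ran from 34362084 to 54011056 counts among control plants and from 34731849 to 47441261 among heat-stressed plants. One transcript, Si020824m, the chloroplast gene psbA, took 61.8% to 69.6% of the control counts and 46.1% to 48.5% of the heat counts. The remaining counts, those outside psbA, numbered 10708257 to 16556078 per control plant, against 18555605 to 24411265 per plant under heat. Levels are given as CPM, counts per 1000000 counts of the library, scaled with the TMM factors of edgeR, which allow for this shift. With library size as the only scaling, the median transcript would have a log2 fold change of 1.07 instead of 0.02.

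The highest transcript of the set, Si009497m, had 5, 20, 2, 8 and 3 counts in control plants 1 to 5. In the heat-stressed plants its count was 38608 at the lowest, 47145.5 at the median and 74408 at the highest. The limits of the choice set the groups apart. Before scaling, the lowest heat-stressed plant had 1930 times the count of the highest control plant. In CPM the ratio was smaller, with 699.1 in the lowest heat-stressed plant and 1.01 in the highest control plant. Its mean was 0.315 CPM in the control plants and 910.2 CPM ± 271.6 (SD, n = 6) under heat. It was the 26th to 43rd most counted transcript of a heat-stressed leaf, and its log2 fold change, 11.73 (SE 0.52), was the largest of the 18065 transcripts fitted. Without control plant 2, which held 20 of its 38 control counts, the log2 fold change was 12.64. Leaving out any other control plant lowered it, to between 11.42 and 11.67.

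The second transcript, Si002731m, had 2, 2, 1, 4 and 5 counts in the control plants. Under heat the counts were 3548 at the lowest, 7207 at the median and 14860 at the highest. Heat-stressed plant 2 held the highest value and plant 6 the lowest, a 4.19-fold range that is the widest of the set in counts. The mean level was 0.0936 CPM in the control plants and 134.2 CPM ± 59.3 (SD, n = 6) under heat, a log2 fold change of 10.44 (SE 0.47).

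For Si034600m, the control counts were 1, 9, 2, 13 and 3, and the heat counts were 2968 at the lowest, 4321.5 at the median and 8289 at the highest. The transcript Si035044m had 9, 3, 2, 10 and 3 counts in the control plants, and 2022, 3625.5 and 5037 as the lowest, median and highest heat counts. The fifth transcript, Si034355m, had 6, 0, 0, 1 and 3 control counts and 2538, 3250 and 4188 under heat. Of these 3, Si034355m had the narrowest range among heat-stressed plants, 1.65-fold in counts, against 2.79-fold for Si034600m and 2.49-fold for Si035044m. Their mean heat levels were 80.6 CPM ± 26.2, 61.8 CPM ± 22.4 and 57.5 CPM ± 9.17 (SD, n = 6), in the order in which they are named.

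The other 8 transcripts had a median of 839 to 1479 counts in the heat-stressed plants. The fewest control counts belonged to Si037240m, with 0, 1, 1, 1 and 0 counts, and its heat counts ran from 943 to 1954. Over all control plants this is 3 counts against 7838, a ratio per effective library of 1131 with an exact 95% interval of 387 to 5484 that covers counting error only. No transcript of the set was at 0 in every control plant. Si037867m had 0, 5, 3, 1 and 1 control counts and 717 to 2852 under heat, and Si011248m had 11, 5, 12, 11 and 5 against 628 to 2005. Control counts of Si036219m were 16, 5, 14, 17 and 14, the largest control sum of the set, and its heat counts ran from 911 to 2126. Its log2 fold change was 5.78 (SE 0.29), and that of Si040027m, with control counts of 10, 1, 12, 12 and 11, was the smallest of the set at 5.53 (SE 0.29).

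**Figure D1:**
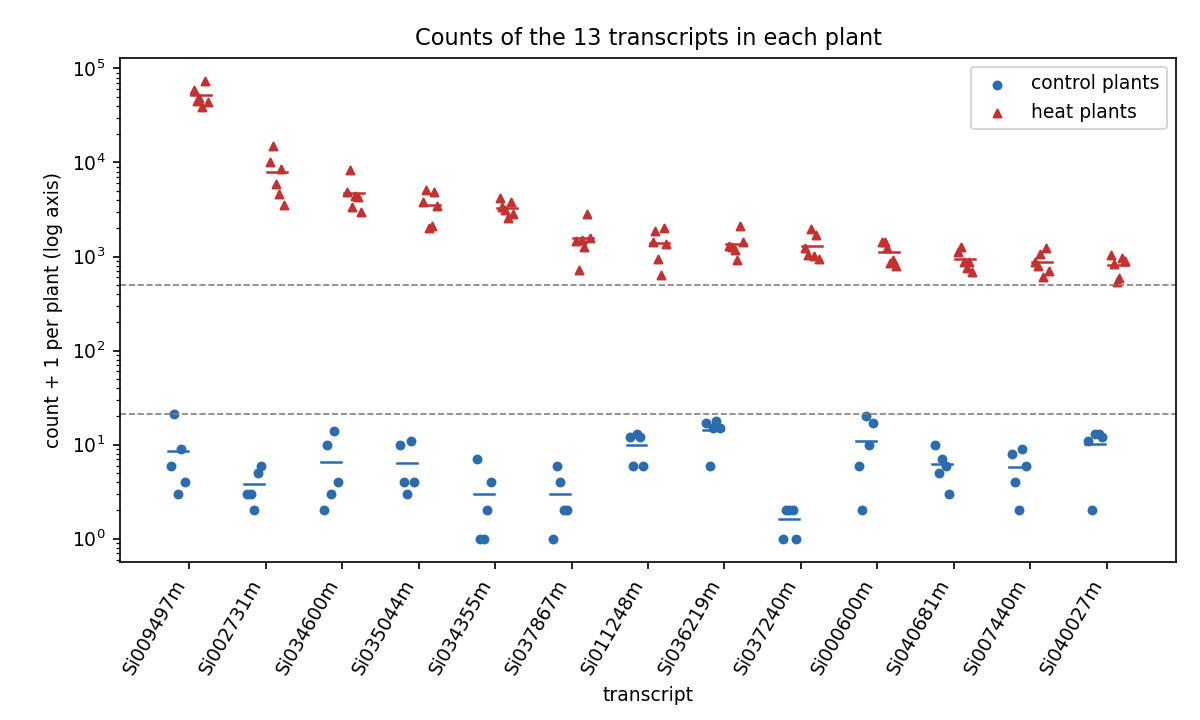
Each point is the count + 1 of a transcript in a plant, on a log axis, with control plants as circles, heat-stressed plants as triangles and group means as bars; dashed lines mark the limits of 20 and 500 counts. Si009497m stands above the others with 38608 to 74408 counts under heat. In no transcript do the groups overlap, which the limits of the choice fix in advance.

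In the fit over all 18065 transcripts, edgeR's quasi-likelihood test called 32.2% higher under heat (5818 transcripts, with 5583 lower) and 63.1% in either direction. All 13 transcripts of the set were among those called higher. They passed the filter on low counts through the heat-stressed plants alone, and they had been chosen on this contrast, so that nothing is read from the count. The median log2 fold change was 8.39 in the set and 0.02 over all transcripts. The lowest heat-stressed plant was above the highest control plant in all 13 and in 23.5% of all transcripts. With library size as the only scaling, 13216 transcripts were higher and 1385 lower, and the median of the set was 9.42. The set held 4 of the 10 and 7 of the 20 largest log2 fold changes in the fit.

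Si009497m summed to 38 counts in all control plants, and Si036219m, with 1.70% of the set's heat counts against 64.2%, summed to 66. Over the 13 transcripts, the rank correlation of control and heat sums was -0.17, a description over transcripts that share the same libraries and whose control and heat counts were both limited by the choice. The sum of all 13 was 81, 59, 75, 100 and 71 counts in control plants 1 to 5. Before TMM scaling that is 1.31 to 2.27 CPM.

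Around the limits, the transcripts of the set lay close to others. Just inside the control limit were Si009497m, at 20 counts in control plant 2, Si000600m, at 19 in control plant 3, and Si036219m, at 17 in control plant 4. Just outside it were Si021450m, with a highest control count of 22 and 634 to 1106 counts under heat, Si022771m at 23, and Si002533m at 27. The heat limit was nearest for Si040027m, whose lowest heat count was 541, then Si007440m at 599 and Si011248m at 628. Just below it lay Si026960m, with 496 counts in heat-stressed plant 4 and up to 2362 in the others, Si011858m at 413, and Si003242m at 403. Si026960m had at most 3 counts in a control plant, fewer than all but 1 transcript of the set.

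The number of transcripts depended on the limits. In all, 25912 transcripts had at most 20 counts in every control plant, and 14003 of these had a count in a heat-stressed plant. Their lowest heat count reached 100 in 103 transcripts, 250 in 24, 500 in 14 (with Si027442m), 1000 in 6 and 10000 in 1, which was Si009497m. With the conditions exchanged, 0 transcripts had at most 20 counts in every heat-stressed plant and at least 500 in every control plant. The smaller number of control counts outside psbA, given above, moves with that asymmetry, and its part in it was not tested. At limits of 10 and 1000 counts, 3 transcripts remained, namely Si002731m, Si035044m and Si034355m, and at limits of 40 and 250 there were 55. With counts brought to a common TMM library size and the limits kept, 7 remained, and Si009497m was among the 6 that did not.

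**Figure D2:**
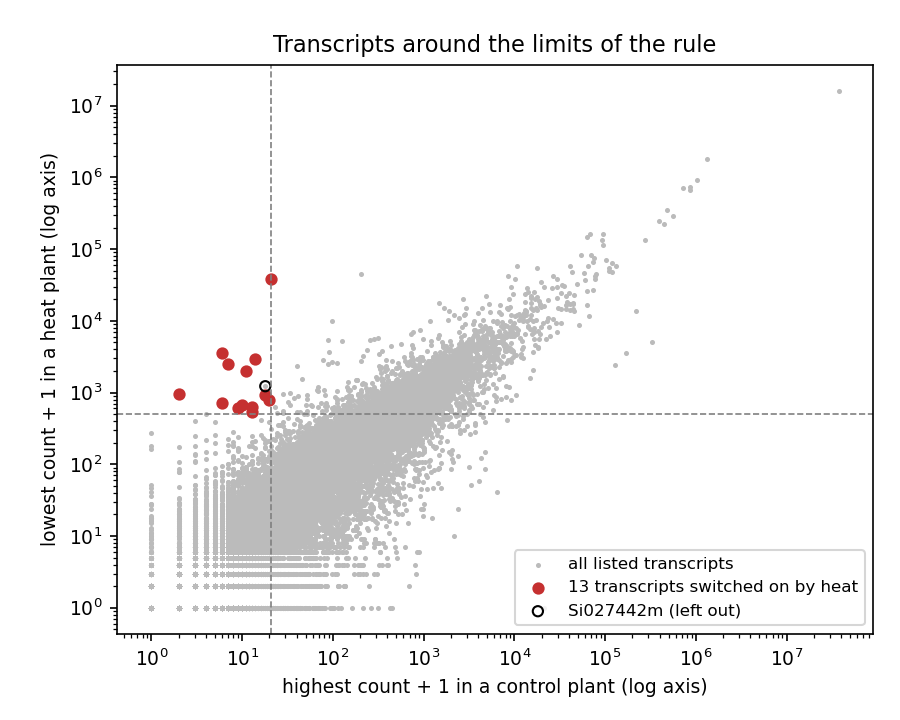
Each point is a transcript, placed by its highest count + 1 in a control plant and its lowest count + 1 in a heat-stressed plant, both on log axes; dashed lines mark the limits of 20 and 500. The 13 transcripts fill the upper left corner, with Si009497m on the control limit at 20 counts and Si027442m, which was left out, drawn as an open circle.

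Together the 13 transcripts had 58847 to 108351 counts in a heat-stressed plant. This was 0.193%, 0.198%, 0.167%, 0.169%, 0.279% and 0.169% of all transcript counts in heat-stressed plants 1 to 6, a mean of 0.196% ± 0.0430 (SD, n = 6). Without psbA in the total, the mean share was 0.372% ± 0.0847 (SD, n = 6). Heat-stressed plant 5 lay above the other plants, which ran from 0.167% to 0.198%.

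A single transcript held most of the set. Si009497m had 52.7% of the set's counts in the lowest heat-stressed plant, 66.4% at the median and 68.7% in the highest. The lowest value, in plant 2, went with the highest levels of Si002731m (228.2 CPM) and Si034600m (127.3 CPM). The 3 most counted transcripts of each plant together had 78.4% to 80.9% of the counts, and the 10 most counted had 96.7% to 97.5%. Without Si009497m, the other 12 transcripts took 0.0697% ± 0.0172 (SD, n = 6) of a heat library. Their share was highest in plant 2, at 0.0938%, and next highest in plant 5, at 0.0875%.

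**Figure D3:**
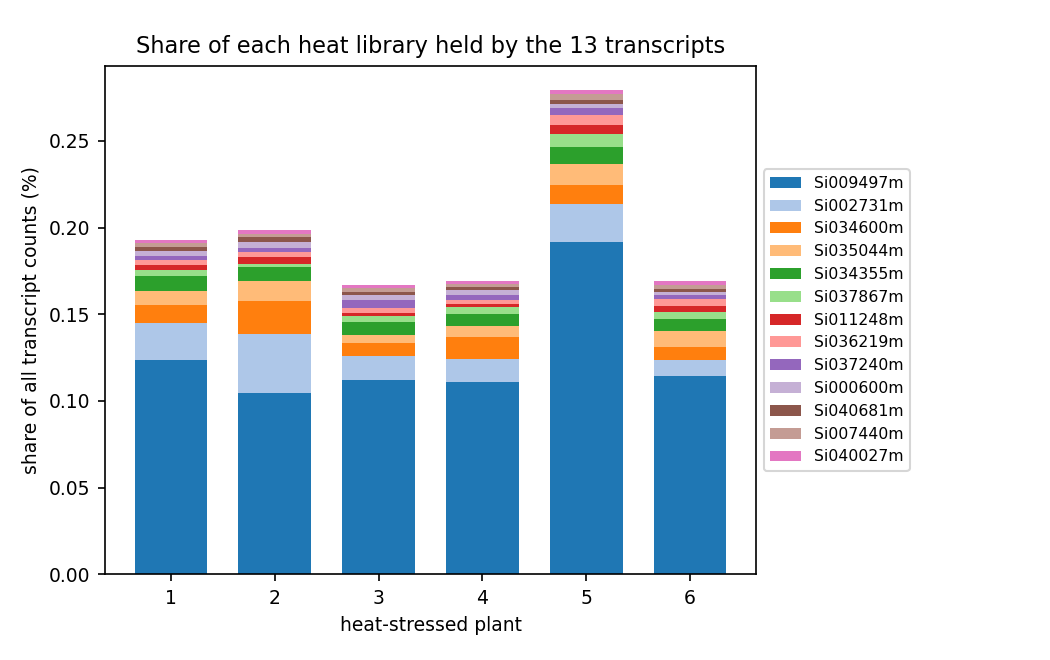
Stacked bars give the share of all transcript counts, in percent, that each of the 13 transcripts took in heat-stressed plants 1 to 6. Plant 5 stands highest at 0.279%, and Si009497m fills 52.7% to 68.7% of each bar.

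The set was not uniform among heat-stressed plants. The SD of log2 CPM over the 6 plants had a median of 0.44 in the set, against 0.27 over all tested transcripts. Without heat-stressed plant 5 the median of the set was 0.368. Among the 2905 other transcripts within the same range of mean heat CPM (14.2 to 910.2) the median was 0.16. The steadiest transcripts were Si040681m, with an SD of 0.198 and 13.1 to 19.6 CPM, Si000600m, with 0.202 and 15.3 to 21.7 CPM, and Si034355m, with 0.216 and 50.3 to 73.8 CPM. The most variable was Si037867m, with an SD of 0.75. It was lowest in heat-stressed plant 2 and highest in plant 5, at 55.5 CPM, a 5.04-fold range, and had 22.1 to 30.5 CPM in the other 4. Si002731m, with an SD of 0.64, and Si011248m, with 0.604, came next.

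**Figure D4:**
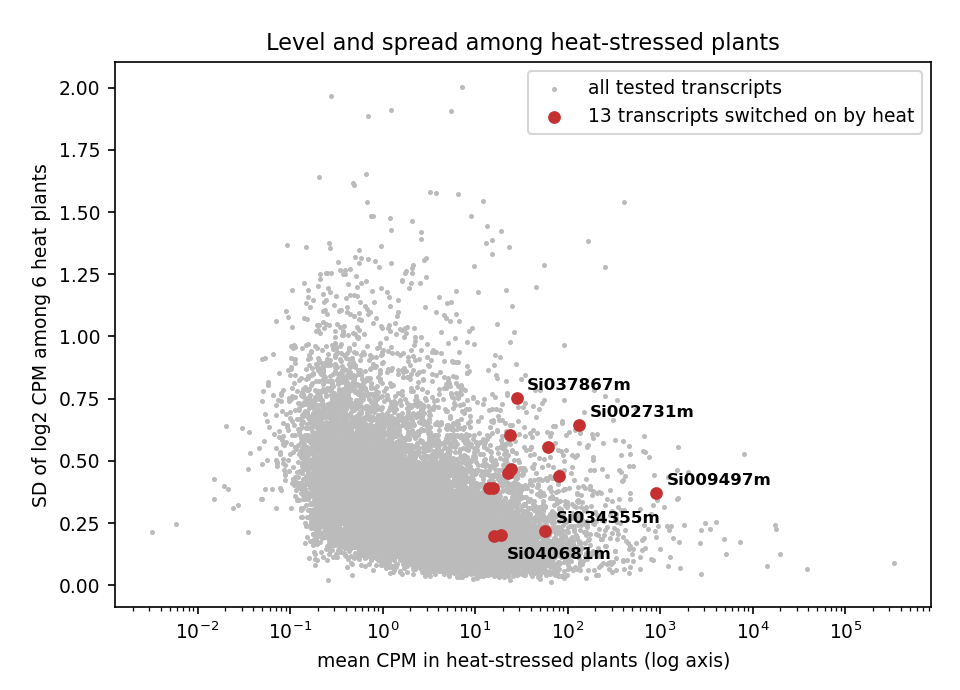
Each point is a transcript, with its mean CPM in the heat-stressed plants on a log axis and the SD of its log2 CPM among them. The 13 transcripts, in red, run from an SD of 0.198 (Si040681m) to 0.75 (Si037867m), and 10 of the 13 lie above the median of 0.27 over all tested transcripts.

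Heat-stressed plant 5 had the highest level of 9 of the 13 transcripts and was above the transcript's own mean in 12, with Si000600m as the exception. Over all tested transcripts, plant 5 was the highest in 23.0% and above the mean in 49.1%. The median deviation of the set in plant 5 was 0.57 on the log2 scale, against -0.21 to -0.04 in the other plants. With library size as the only scaling, plant 5 was the highest in 8 of the 13 transcripts, against 16.8% of all transcripts. The share of psbA in plant 5 was 47.8% and its total was 38794018 counts, both inside the range of the other heat-stressed plants. Its TMM factor was the lowest of the 6, at 1.325 against 1.336 in plant 6, the next lowest, and a low factor raises CPM. With library size as the only scaling, the median deviation of the set in plant 5 was 0.495. The part of library measures and scaling in the levels of plant 5 was not tested.

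The 4 transcripts that were not highest in plant 5 were highest in plant 2. These were Si002731m, Si034600m, Si000600m and Si040681m. Plant 2 was at the same time the lowest for Si009497m, at 699.1 CPM, for Si037867m and for Si037240m. The transcript Si037240m had 32.7 CPM in plant 5 and nearly as much, 32.5 CPM, in plant 3, and 15.8 to 20.0 CPM in the remaining plants.

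**Figure D5:**
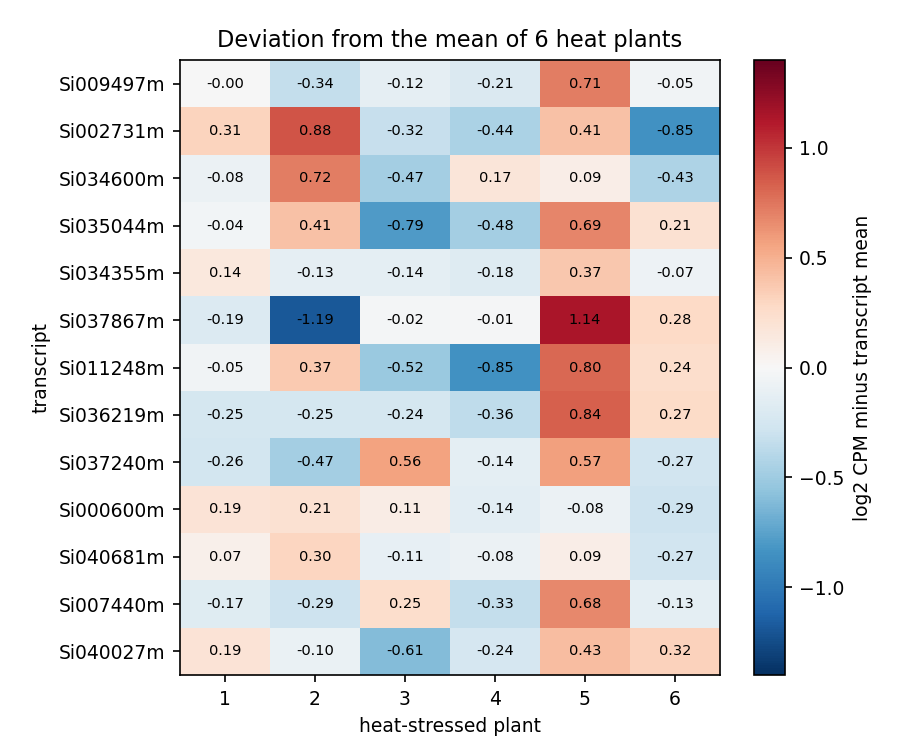
Colours and numbers give the log2 CPM of each of the 13 transcripts in heat-stressed plants 1 to 6 minus the transcript's mean over them. Plant 5 is above the mean in 12 transcripts, by 1.14 for Si037867m, and plant 2 runs from -1.19 (Si037867m) to 0.88 (Si002731m).

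To see which transcripts varied together, log2 CPM was correlated over the 6 heat-stressed plants for all 78 pairs. Of these, 57 had a positive r, and the median r was 0.403. No such figure was computed over all transcripts. The pairs share 13 transcripts and 6 plants and are not independent, and plant 5 was above the mean in 12 transcripts. An exact permutation test over 720 pairings gave 11 pairs an unadjusted p under 0.05, all with a positive r. After Benjamini-Hochberg adjustment 0 pairs remained, with a smallest adjusted value of 0.217. The smallest p this test can give is 0.00139, so a lone pair could not pass adjustment over 78 pairs. The choice had also limited the heat counts from below, and nothing is concluded from these numbers of pairs. The largest r was that of Si002731m and Si040681m, at 0.984 (exact permutation p = 0.00694, adjusted 0.217), with a Spearman rho of 0.943 (exact permutation p = 0.0167, adjusted 0.433). Without the 2 plants farthest from the median of Si002731m, r was 0.97. The other transcripts most like Si002731m were Si034600m, with an r of 0.77, and Si000600m, with 0.756, of which the former fell to 0.23 and the latter to 0.283 without those 2 plants.

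Si009497m was most like Si034355m, with an r of 0.92 (exact permutation p = 0.00833, adjusted 0.217) and a rho of 0.829 (exact permutation p = 0.0583, adjusted 0.569). Without the 2 plants farthest from its median, r was 0.872. For Si036219m, next in order, r was 0.90 and became 0.493 without those plants. For Si037867m it was 0.869 and became -0.04, so that the latter relation rests on those 2 plants together. With a single plant left out, r ran from 0.693 to 0.975 for Si034355m. It ran from 0.768 to 0.925 for Si037867m and from 0.437 to 0.957 for Si036219m. Between Si009497m and Si002731m, r was 0.139 (exact permutation p = 0.842, adjusted 0.977) and rho -0.0286. This r ran from -0.515 to 0.664 when a single plant was left out, so these plants do not settle it. All of these values share the scaling factors of the same 6 libraries.

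The counts that chose the set were sums of read pairs and of single reads, which lost their mate in trimming. With read pairs alone, Si007440m and Si040027m would not have reached 500 counts in every heat-stressed plant, so the share of single reads bears on the choice and is described without a test. Single reads made up 12.2%, 13.6%, 16.5%, 12.4%, 13.7% and 13.6% of the set's counts in heat-stressed plants 1 to 6. Among other transcripts without psbA, their share was 9.72%, 10.8%, 13.9%, 9.65%, 12.1% and 11.2%. The set was higher in 6 of 6 plants, by 2.44 percentage points ± 0.449 (SD, n = 6).

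Transcripts of the set differed in this share. Pooled over the heat-stressed plants it was highest in Si037240m, at 19.6%, Si035044m, at 18.7%, and Si007440m, at 18.2%. It was lowest in Si040681m, at 10.3%, and Si034355m, at 10.6%, which were below the median of 11.2% over all tested transcripts. The other 11 were above that median, and 9 of the 13 were above the upper quartile of 13.4%. Without Si009497m, a choice made after seeing the data, the difference from other transcripts was 2.97 percentage points ± 0.35 (SD, n = 6).

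The Rubisco activase transcript that was left out, Si027442m, had 24.3 to 52.4 CPM in the heat-stressed plants, with the highest value also in plant 5, and was thus below the 5 most counted transcripts of the set in every heat-stressed plant except for Si035044m in plant 3.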

How the data were processed

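Leaf RNA of 5 control and 6 heat-stressed plants was analysed. Libraries, described as strand-specific, were made after ribosomal RNA removal. According to the study's methods, Trimmomatic trimming was followed by TopHat2 alignment to *S. italica* and by HTSeq counting of exons in union mode; versions of these tools are not given in the sources used here. The deposited unit is the count per transcript without normalization, in 22 files. Read pairs and single reads of each plant, deposited separately by the authors, were summed. Reads with several places or genes are not counted, so that transcripts with a near-identical copy are uncertain. No batch is named, and no libraries of a group agreed within sampling noise (smallest chi-square per degree of freedom 17.7).

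The main test was the quasi-likelihood test of edgeR 4.0.16 (R 4.3.3) after filterByExpr and TMM, with Benjamini-Hochberg adjustment at 0.05 over all transcripts. It was also run on simulated data. Far fewer transcripts changed there than were called here, so that run does not cover so broad a change. Log2 CPM used a prior count of 2. SEs were derived from the fold change and the F statistic (its root as divisor). Alternatives were other scalings, filters and limits, DESeq2 1.42.0, read pairs only, a replicate block and leaving out each plant. Named are the highest, steadiest and most variable transcripts, those nearest the limits and those most like Si009497m and Si002731m. The members, lists and rule were chosen with earlier results of these data known. Lists of heat response genes and sequences were not used here, since no identifier matched the gene table and the portion of the study's annotation table at hand holds none of the 13. Labels do not say whether plants were grown in separate batches. The p-values of the fit set the contrast against the spread between these plants. The permutation p-values concern association of transcripts over the heat-stressed plants.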

Additional observations from a re-analysis of the deposited data

Results flagged for a closer look

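In 30 groups of values (each transcript and the set, in control and in heat-stressed plants), 5 had a plant far from the others by Dixon's gap. Chance flags about 1 in 20 where values are independent and normally distributed. The values here were CPM and shares without a log, from counts bounded by the choice, so that rate need not hold. In heat-stressed plant 5, Si009497m reached 1448 CPM against 699.1 to 881.8 in the other plants, the summed level of the set was 2109 CPM against 1166 to 1377, and its share of the library was 0.279%. These 3 values are not separate, since Si009497m dominates the sums. Without plant 5, the mean share of the set was 0.179%. In control plant 2, Si009497m had 1.01 CPM, from 20 counts, and Si040027m had 0.0505 CPM, from 1 count.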

How the results depend on the processing

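The number of transcripts was 3 at limits of 10 and 1000 counts, 55 at limits of 40 and 250, and 7 at a common TMM library size, where Si009497m, Si034600m, Si011248m, Si036219m, Si000600m and Si040027m dropped out. At a common total it was 14, of which 12 were shared, and Si009497m dropped out. With each plant left out it was 13 to 15. The share of the heat library was 0.372% without psbA in the total and 0.25% from single reads only. Library size as the only scaling gave 13216 higher and 1385 lower transcripts; this setting shifts changes by construction. The spread given as a coefficient of variation, another unit, had a median of 32.5%. The single-read difference was 2.38 to 2.61 percentage points with each plant left out. All 13 were called higher in each of the 19 alternatives, with log2 fold changes of one direction. This follows from the limits of the choice, and nothing is read from it. Over all transcripts, the share called higher ran from 23.4% (no filter) to 73.2% (library size only) in these settings. Same-numbered plants correlated by only -0.0235 to 0.152 in their deviations. Control plants 1 and 3 were most like the heat-stressed plant of the same number, and control plants 2, 4 and 5 were not. Such values cannot decide whether numbers pair the plants, and the main fit did not pair them. The replicate block, without heat-stressed plant 6, gave 5563 higher and 5119 lower transcripts, with a set median of 8.32. Counting error is largest for the control counts.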

Other observations

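Outside the set, 34 transcripts with at most 20 counts in every control plant reached 500 counts in 1 to 5 of the heat-stressed plants. Of these, 17 reached it in 1 plant alone, 11 of them in heat-stressed plant 2 and 6 in plant 5. Plants 1 to 6 reached 500 counts for 13, 27, 7, 2, 17 and 4 of the 34. These are counts against a fixed limit and are not scaled for depth. Library totals ran from 34731849 counts in plant 4 to 47441261 in plant 1, with 43493665 in plant 2. The part of depth was not tested, and no matching share over all transcripts was computed.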
